A study of Mus musculus with 8 samples.

Results

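Long-chain acyl-CoA synthetases and fatty acid transport proteins are the enzymes that fix a free fatty acid inside a cell, and here their transcripts were followed in the small intestine of mouse fetuses with and without the zinc finger transcription factor Plagl2. The set was defined as every probe set of the array listed with exactly 1 gene symbol, that symbol being 1 of 10 genes: Acsl1, Acsl3, Acsl4, Acsl5, Acsl6, Slc27a1, Slc27a2, Slc27a3, Slc27a4 and Slc27a5. By that rule 15 of 45101 probe sets were members, and they represented 9 of the 10 genes. Acsl1 had no probe set under its symbol in the annotation used and was not analysed here. Tissue came from 4 Plagl2 knockout and 4 wild-type fetuses at 18.5 dpc (days post coitum), with 1 Affymetrix MOE430 2.0 array for each sample. The labels name no allele, strain, sex or litter, and no treatment. The loss was not tied to a cell type by the labels, and the small intestine was taken as a tissue, so fewer cells of a type and less RNA per cell cannot be told apart. Whether the samples came from separate litters was not given, so the p-values cover the spread of these 8 samples alone.

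A fatty acid can be esterified, oxidised or elongated only after it has been joined to coenzyme A. The ACSL enzymes do this on membranes of the endoplasmic reticulum, mitochondria, lipid droplets and endosomes. The SLC27A proteins, also called fatty acid transport proteins, promote fatty acid uptake and carry acyl-CoA synthetase activity that favours very long chains or, for some members, bile acids. In the absorbing enterocyte, ACSL5 and SLC27A4 are regarded as main activating enzymes for dietary fat that is rebuilt into triglyceride for chylomicrons. The series title names chylomicron metabolism as the subject, and setting knockout against wild-type asks which of these activating steps differ in transcript level when Plagl2 is lost.

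The check of the genotype labels held in each array. Plagl2 signal (1417517_at) was 3, 6, 5 and 11 in knockouts 1 to 4, against 824, 817, 697 and 796 in wild-types 1 to 4. The fetal sex was not balanced: Xist, transcribed from the inactive X chromosome, reached 1828 and 1410 in knockouts 2 and 3 and was at most 47 in the other 6 arrays. The log2 ratio of 3' to 5' control signals was 0.0174 to 0.0978 in knockouts and -0.0554 to 0.00656 in wild-types, so it moved with genotype. A fit adjusted for this ratio cannot fully separate it from genotype. Knockout 4 carried liver transcripts, with an Alb (albumin) signal of 4646, against 4 to 656 in the other knockouts and 15 to 122 in wild-types. Wild-type 3 stood apart from the other wild-types on the first principal component (21.9, against 43.3 to 44.7). Of 10 enterocyte markers, Krt20 was higher in knockouts and 0 were lower, with summed signals of 51040 to 62873 in knockouts and 48069 to 57034 in wild-types, so the tissue carried its labelled epithelium in all 8 arrays.

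Slc27a2 rose and Acsl3 fell in the knockouts, and no other gene of the set was called. Of the 11 member probe sets bright enough to be tested, 1 was higher (9.09%), where 5.28% of all 27022 tested probe sets were, and 2 were lower (18.2%), where 6.70% were. Calls rest on limma with a Benjamini-Hochberg adjusted p under 0.05, and 12.0% of all tested probe sets were called in either direction. Both lower calls belong to Acsl3, so they are not separate genes. The members were chosen with earlier results of these data known, so the shares do not test for an excess. The median log2 fold change over the 11 was -0.12, against 0.027 over all probe sets tested. Signals of the genotypes did not overlap for 1 of the 11 in the higher direction, where 7.70% of all tested probe sets did not, and for 2 in the lower direction, where 9.26% did not. The other 4 member probe sets, 1 of Acsl4, both of Acsl6 and the only one of Slc27a3, were too dim for the test and are described by their signals.

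Of 7 tested leukocyte markers, 2 were called and 5 were not. Csf1r, the macrophage growth factor receptor (log2 fold change -2.38, adjusted p = 7.88e-07), and Adgre1, a macrophage surface protein (-0.98, adjusted p = 0.00205), were lower and 0 were higher. The uncalled ones had log2 fold changes of -0.44 (Ptprc), -0.34 (Cd68), -0.20 (Laptm5), -0.011 (Tyrobp) and 0.28 (Lyz2). The summed signal of the 7 was 1330 to 1890 in knockouts and 3832 to 5251 in wild-types, without overlap. Csf1r alone was at 628 to 858 in knockouts and 2874 to 4306 in wild-types, so the gap in the sum is mostly that of Csf1r. S100b, a glial marker (-0.89, adjusted p = 0.0379), was the called gene of 6 in the enteric neuron and glia list, whose summed signals were 442 to 681 in knockouts and 437 to 641 in wild-types. Tff2, a stomach mucosa gene (-2.56, adjusted p = 0.0367), was the called gene of 3 tested in the stomach list, with sums of 193 to 937 in knockouts and 472 to 940 in wild-types. By limma 0 of 7 mesenchyme, 0 of 6 endothelium and 0 of 6 pancreas markers were called, with an unadjusted p under 0.05 for 2, 0 and 0 of them in that order. The part of these cell types in the Slc27a2 and Acsl3 differences was not tested.

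**Figure D1:**
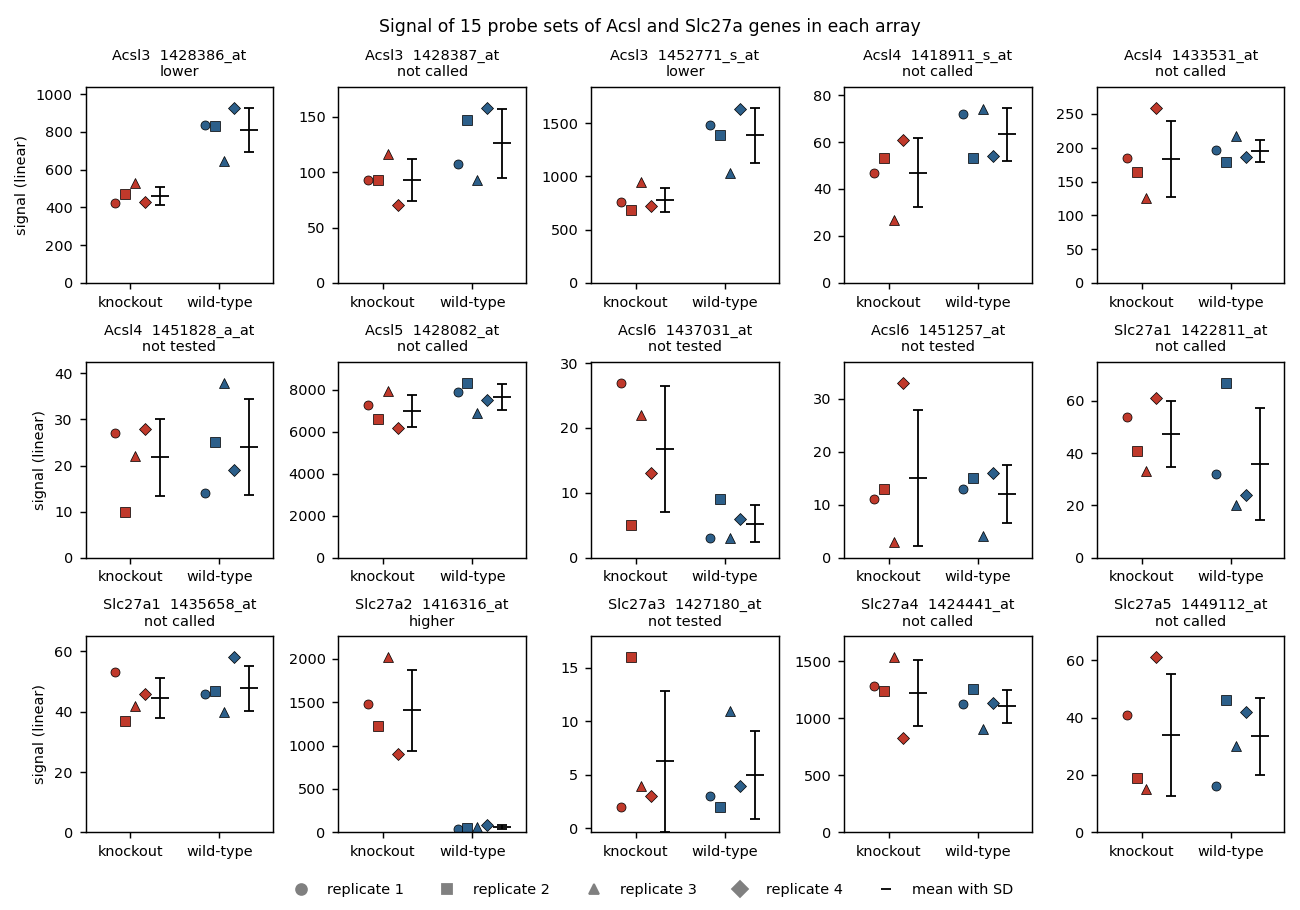
Signal on a linear scale (vertical axes, each with its own range) of the 15 probe sets of Acsl and Slc27a genes, with knockout arrays in red on the left and wild-type arrays in blue on the right; marker shapes give the replicate, and bars give the mean with SD of 4 arrays. The 4 knockout values of Slc27a2 (900 to 2016) lie above all wild-type values (38 to 86), 2 Acsl3 probe sets separate the other way, and the groups overlap in the other 12 panels.

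Promoter windows are shown for 4 genes, a called and an uncalled member of each family: Slc27a2 and Slc27a4, and Acsl3 and Acsl5. Each window runs from 250 bases before to 50 bases after a start given by RefSeq's annotation of GRCm38.p6, 5′ to 3′ on the gene's strand. For Slc27a2, Slc27a4 and Acsl3 that start is the first annotated base of the gene, while for Acsl5 it lies 1508 bases inside the annotated gene, so the Acsl5 window is not at the gene's outermost start. Capitals mark matches on either strand to 2 patterns. The first is the consensus known for the PLAG family (GAGGC or GGGGC, then 6 to 8 bases of any kind, then GGG). The second is AGGTCA, the half-site bound by many nuclear receptors.
Slc27a2, chr2:126552774-126553073, + strand: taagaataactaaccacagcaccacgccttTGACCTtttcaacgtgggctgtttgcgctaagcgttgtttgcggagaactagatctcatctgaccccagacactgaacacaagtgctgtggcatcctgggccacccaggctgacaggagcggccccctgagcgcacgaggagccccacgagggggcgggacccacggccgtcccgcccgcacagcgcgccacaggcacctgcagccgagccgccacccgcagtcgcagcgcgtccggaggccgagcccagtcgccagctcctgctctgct
Slc27a4, chr2:29802384-29802683, + strand: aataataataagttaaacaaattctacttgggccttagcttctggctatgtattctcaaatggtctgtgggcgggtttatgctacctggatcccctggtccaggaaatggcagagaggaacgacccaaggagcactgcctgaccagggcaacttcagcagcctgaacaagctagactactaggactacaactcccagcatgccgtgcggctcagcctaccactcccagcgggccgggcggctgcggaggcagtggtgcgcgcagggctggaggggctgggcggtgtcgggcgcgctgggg
Acsl3, chr1:78657575-78657874, + strand: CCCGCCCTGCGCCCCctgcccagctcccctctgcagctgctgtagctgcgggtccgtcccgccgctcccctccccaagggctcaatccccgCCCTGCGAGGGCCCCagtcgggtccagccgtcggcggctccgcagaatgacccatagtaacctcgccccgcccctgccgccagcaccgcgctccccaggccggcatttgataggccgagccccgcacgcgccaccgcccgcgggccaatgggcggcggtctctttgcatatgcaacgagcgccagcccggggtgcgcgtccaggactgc
Acsl5, chr19:55253119-55253418, + strand: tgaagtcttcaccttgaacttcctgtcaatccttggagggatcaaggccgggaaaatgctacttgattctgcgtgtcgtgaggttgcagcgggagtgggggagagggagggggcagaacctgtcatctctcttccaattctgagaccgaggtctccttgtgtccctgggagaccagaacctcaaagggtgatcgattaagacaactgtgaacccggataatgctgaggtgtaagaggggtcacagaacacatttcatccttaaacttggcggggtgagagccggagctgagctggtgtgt
The Slc27a2 window holds 1 AGGTCA half-site, read on the opposite strand and beginning 220 bases before the start, and no match to the PLAG consensus. The Acsl3 window holds 2 matches to the PLAG consensus, also on the opposite strand, beginning 250 and 159 bases before the start. The Slc27a4 window and the internal Acsl5 window hold neither pattern. Among all 32851 windows of this length, 22.7% hold the PLAG consensus and 16.3% the half-site. Of the 9 genes, 8 had windows in the table, 12 in all, of which 6 held the PLAG consensus and 2 the half-site. Besides Acsl3, the PLAG consensus was in the Acsl4 window, 1 of 3 Slc27a1 windows and all 3 Acsl6 windows. These 3 genes had no call, and Acsl6 was too dim to be tested. A G-rich pattern is met more often in G- and C-rich windows, and the Acsl3 window is 74% G and C, against a median of 52.7% over all windows. These matches describe the letters in the windows and were not tested against the changes in signal.

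Slc27a2 encodes FATP2, a transporter and very long-chain acyl-CoA synthetase of peroxisomes and the endoplasmic reticulum that also activates bile acid precursors and is abundant in liver and kidney. Its probe set 1416316_at gave signals of 1479, 1224, 2016 and 900 in knockouts 1 to 4, against 38, 45, 62 and 86 in wild-types 1 to 4. Every knockout lay above every wild-type, and the lowest knockout was over 10 times the highest wild-type. The means were 1405 ± 471 in knockouts and 57.8 ± 21.4 in wild-types (SD, n = 4 each), a ratio of 24.3. On the log2(signal + 16) scale the difference was 4.25 ± 0.24 (SE, 95% interval 3.72 to 4.78, limma adjusted p = 7.91e-07), which ranked 7 from the top among 27022 probe sets. The wild-type signals are dim, so the size depends on the added constant: it was 4.59 with 1 and 3.55 with 64. The table holds no detection calls, so whether the wild-type signal stands above background is not given.

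Slc27a2 is a transcript of liver, so the liver markers are given beside it. Alb signals were 656, 4, 32 and 4646 in knockouts 1 to 4, against 15, 22, 122 and 75 in wild-types 1 to 4. Of 9 liver markers on the array, 5 were tested, 0 were higher and 2, Ttr and Cps1, were lower. Both were bright where Alb was dim: in wild-type 1, with Alb at 15, Ttr was at 5856 and Cps1 at 7997. Summed signals of the 5 were 6874 to 15652 in knockouts and 10886 to 13924 in wild-types. Most of that sum in each array was Cps1 (5608 to 6572 in knockouts, 6547 to 7997 in wild-types) and Ttr, so it follows Alb poorly. Apoh (346) and Fgb (809) were, like Alb, highest of the 8 arrays in knockout 4. The part of liver transcripts in the Slc27a2 difference was not tested. Without knockout 4 the log2 fold change of Slc27a2 was 4.44 (adjusted p = 8.46e-07). It was 4.03 in the 6 arrays without Xist signal (adjusted p = 3.61e-05). Of the knockouts, those 6 arrays keep only 1 and 4, which had the highest Alb signals. After adjustment for the 3' to 5' ratio the log2 fold change of Slc27a2 was 4.32 (adjusted p = 0.000141).

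Slc27a4 encodes FATP4, the family member of the small intestine best known for very long-chain fatty acids in the endoplasmic reticulum. Its signals (1424441_at) were 1284, 1243, 1534 and 828 in knockouts 1 to 4, against 1121, 1257, 908 and 1131 in wild-types 1 to 4. The groups overlapped, with the highest and the lowest of the 8 values both in knockouts. The log2 fold change was 0.12 with a 95% interval of -0.24 to 0.48 (adjusted p = 0.704), and without knockout 4 it was 0.29, also not called. Slc27a2 and Slc27a4 lie on chromosome 2, as does Plagl2, and are not adjacent: in GRCm38.p6 Slc27a4 spans 29802634 to 29817522, Slc27a2 spans 126553024 to 126588243 and Plagl2 spans 153227769 to 153241358.

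The remaining transport protein genes were dim in both genotypes. Slc27a1, or FATP1, is the transporter of muscle and fat; its 2 probe sets ranged from 33 to 61 in knockouts and 20 to 67 in wild-types (1422811_at, log2 fold change 0.35, adjusted p = 0.46) and from 37 to 53 in knockouts and 40 to 58 in wild-types (1435658_at, -0.075, adjusted p = 0.826). Slc27a5, or FATP5, conjugates bile acids to coenzyme A in liver. Its signals (1449112_at) were 41, 19, 15 and 61 in knockouts 1 to 4, against 16, 46, 30 and 42 in wild-types 1 to 4 (log2 fold change -0.038, 95% interval -0.73 to 0.65, adjusted p = 0.956). The highest of these 8 values was in knockout 4, the array with the highest Alb signal, and its part in that value was not tested. Slc27a3 (1427180_at) was at 2, 16, 4 and 3 in knockouts 1 to 4, against 3, 2, 11 and 4 in wild-types 1 to 4, and was not tested.

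Acsl3 encodes the synthetase of the endoplasmic reticulum and of growing lipid droplets, which supplies acyl-CoA for phosphatidylcholine and droplet lipids. The probe set 1452771_s_at gave 758, 689, 946 and 721 in knockouts 1 to 4, against 1484, 1390, 1029 and 1638 in wild-types 1 to 4. Its suffix _s_at is that of probe sets that may detect several transcripts. The groups did not overlap, and the wild-type nearest to the knockouts was wild-type 3. Mean signals were 779 ± 115 in knockouts and 1385 ± 259 in wild-types (SD, n = 4 each), and the log2 fold change was -0.81 ± 0.15 (SE, 95% interval -1.13 to -0.49, adjusted p = 0.00315).

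A second Acsl3 probe set, 1428386_at, separated the genotypes in the same way, with 421, 470, 527 and 429 in knockouts 1 to 4, against 838, 831, 645 and 925 in wild-types 1 to 4. Its log2 fold change was -0.78 ± 0.12 (SE, 95% interval -1.05 to -0.51, adjusted p = 0.00132). The third, 1428387_at, gave 93, 93, 116 and 70 in knockouts 1 to 4, against 107, 147, 93 and 158 in wild-types 1 to 4. These groups overlapped, and the log2 fold change of -0.37 (95% interval -0.78 to 0.031) did not pass (adjusted p = 0.232). All 3 are annotated to the same clone sequence (AK012088), so they are not independent of each other.

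Wild-type 3, with the lowest Acsl3 signal of the wild-types by both called probe sets, also had the highest smooth muscle signal of the wild-types. Over 7 tested smooth muscle markers the summed signal was 10039 to 16298 in knockouts and 7812 to 13498 in wild-types. By limma Smtn was called as higher and 0 as lower, and 4 of the 7 had an unadjusted p under 0.05. Every log2 fold change of the 7 was positive, from 0.071 (Des) to 0.67 (Smtn), with a median of 0.51. The part of muscle in the Acsl3 difference was not tested. Without wild-type 3 the 2 called probe sets had log2 fold changes of -0.94 and -0.89 (adjusted p = 0.000304 for 1452771_s_at and 0.000223 for 1428386_at). After adjustment for the 3' to 5' ratio they had -0.96 and -0.86 (adjusted p = 0.0333 for 1452771_s_at and 0.029 for 1428386_at).

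Acsl5 encodes the synthetase of enterocyte mitochondria and endoplasmic reticulum. Its signals (1428082_at) were 7262, 6627, 7923 and 6197 in knockouts 1 to 4, against 7902, 8343, 6887 and 7504 in wild-types 1 to 4. The values of the genotypes interleaved, and means were 7002 ± 754 in knockouts and 7659 ± 618 in wild-types (SD, n = 4 each). The log2 fold change of -0.13 had a 95% interval of -0.33 to 0.063 (adjusted p = 0.395). The interval bounds the size of a difference, and the p does not show that the levels were equal.

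Acsl4 encodes a synthetase with a preference for arachidonic acid and lies on the X chromosome. By 1433531_at its signals were 185, 164, 126 and 259 in knockouts 1 to 4, against 197, 179, 217 and 187 in wild-types 1 to 4. The 2 knockouts with Xist signal had the lowest values of the 8, and the log2 fold change of -0.12 (95% interval -0.51 to 0.27, adjusted p = 0.729) became 0.16 in the 6 arrays without Xist signal (adjusted p = 0.617). By 1418911_s_at, which also carries the suffix of probe sets that may detect several transcripts, the signals ranged from 27 to 61 in knockouts and 53 to 74 in wild-types (log2 fold change -0.35, adjusted p = 0.312). The third probe set, 1451828_a_at, ranged from 10 to 28 in knockouts and 14 to 38 in wild-types and was not tested.

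Acsl6, the synthetase of brain and of red cell precursors, was near the bottom of the scale by both probe sets. The probe set 1437031_at gave 27, 5, 22 and 13 in knockouts 1 to 4, against 3, 9, 3 and 6 in wild-types 1 to 4, and 1451257_at gave 11, 13, 3 and 33 in knockouts 1 to 4, against 13, 15, 4 and 16 in wild-types 1 to 4. The groups overlapped in both, and with no filter on dim probe sets the adjusted p was 0.215 and 0.92. Of 4 erythroid markers on the array, Alas2 and Slc4a1 were tested and 0 were called by limma (1, Alas2, had an unadjusted p under 0.05); their summed signals were 238 to 755 in knockouts and 190 to 385 in wild-types. The highest value of 1451257_at and that of the erythroid sum were both in knockout 4.

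**Figure D2:**
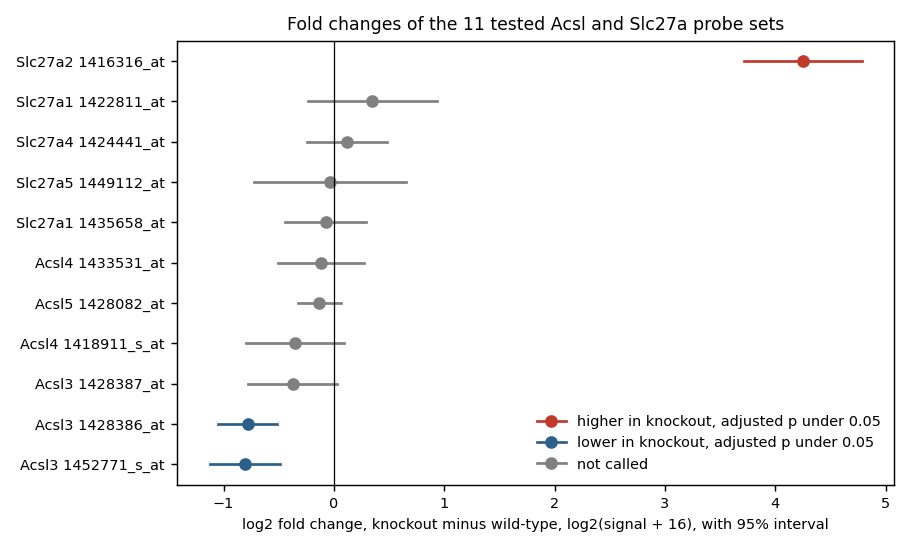
Log2 fold changes of the 11 tested Acsl and Slc27a probe sets (horizontal axis, knockout minus wild-type on the log2(signal + 16) scale), with points for estimates and lines for 95% intervals. Slc27a2 at 4.25 is higher in the knockouts (red), 2 Acsl3 probe sets at -0.78 and -0.81 are lower (blue), and the intervals of the other 8 (grey) include 0.

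**Figure D3:**
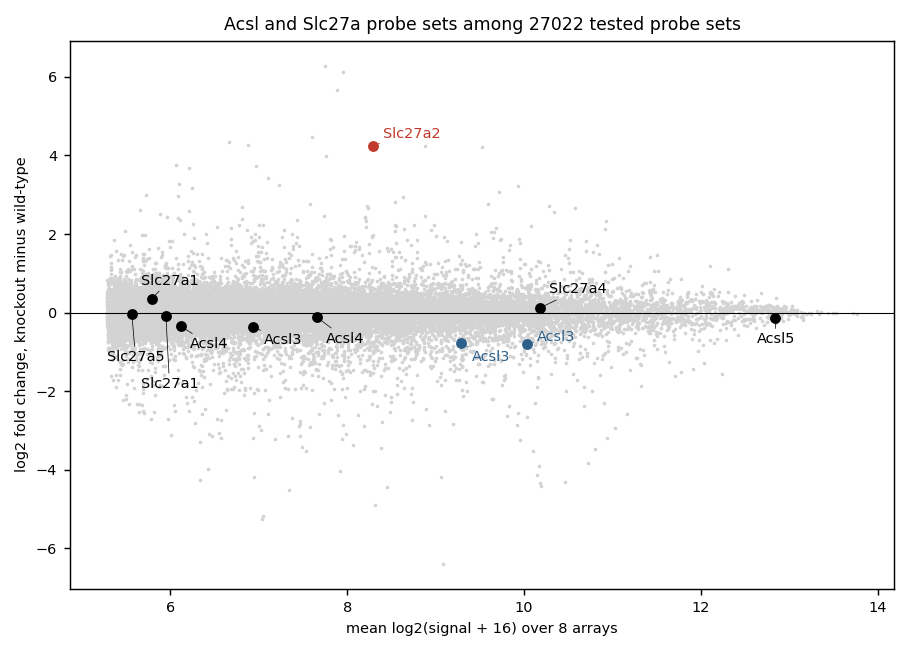
Log2 fold change (vertical axis, knockout minus wild-type) against mean log2(signal + 16) over 8 arrays (horizontal axis) for all 27022 tested probe sets in grey, with the 11 Acsl and Slc27a probe sets marked and named. Slc27a2 lies at the upper edge of the cloud, the 2 called Acsl3 probe sets lie below 0, and the others lie within the bulk of the grey points.

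Other genes that make, carry, split or use acyl-CoA, and regulators of fatty acid genes, changed both ways. Of 72 tested genes in 6 lists, 14 were higher (19.4%), where 6.60% of all 12838 genes were, and 9 were lower (12.5%), where 8.50% were, each gene taken by its brightest tested probe set. The lists were chosen with earlier results of these data known, so the shares describe them and do not test for an excess. The median log2 fold change was near 0, at -0.0039, against 0.0251 over all genes. After adjustment for the 3' to 5' ratio 3 were higher, after adjustment for Xist 6, and without knockout 2 there were 9. Higher calls over all 27022 probe sets also fell, from 1427 to 471, 778 and 876 in the same order.

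Among other acyl-CoA synthetases, 1 of 5 was higher and 0 lower (median log2 fold change -0.089). It was Acsm3, which activates medium-chain fatty acids, at 53, 87, 79 and 65 in knockouts 1 to 4, against 20, 41, 45 and 30 in wild-types 1 to 4 (log2 fold change 0.81, adjusted p = 0.0257). Its call ended without knockout 2 or 3 or wild-type 1 or 4, on adjustment for Xist or for the 3' to 5' ratio, in the 6 arrays lacking Xist, and with no filter (adjusted p = 0.057 to 0.201). After the ratio adjustment its log2 fold change was larger, at 1.15, and so was its SE (0.30, against 0.21 as reported). For the acetate-activating Acss1 and Acss2 the log2 fold changes were -0.43 (adjusted p = 0.0867) and -0.48 (adjusted p = 0.106).

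Acyl-CoA thioesterases, which reverse the synthetase reaction, split: of 12 tested, 3 were higher and 3 lower (median -0.12). Acot3 (log2 fold change -1.62, adjusted p = 0.000103), Acot6 (-0.95, adjusted p = 0.000832) and Acot4 (-0.58, adjusted p = 0.0398) were lower. The groups overlapped for Acot4, and its call ended under 10 of 20 alternatives, among them no filter, the replicate block and leaving out knockout 2 or 4 or wild-type 1, 2 or 4 (adjusted p = 0.0599 to 0.12 over the 10). Acot3 and Acot4 are peroxisomal enzymes in the mouse; they belong to a cluster of similar genes, and the Acot3 probe set carries the suffix of probe sets that may detect several transcripts, so signal of its relatives cannot be told apart. Acot3 signals were 239, 130, 181 and 164 in knockouts 1 to 4, against 591, 489, 493 and 740 in wild-types 1 to 4, without overlap. Acot8, a peroxisomal thioesterase that also acts on bile acid CoA esters, was higher (0.72, adjusted p = 0.00608), as were Acot7 (0.73, adjusted p = 0.0058) and Acot12 (1.21, adjusted p = 0.0268). The calls of Acot7 (adjusted p = 0.208) and Acot8 (adjusted p = 0.19) ended on adjustment for the 3' to 5' ratio, and that of Acot8 also on adjustment for Xist or in the 6 arrays lacking it. After the ratio adjustment Acot7 was at 0.54 and Acot8 at 0.57, each with an SE of 0.22, against 0.14 as reported. Acot12 lost its call under 10 alternatives, among them leaving out knockout 1, 2 or 3 or wild-type 1 or 2 (adjusted p = 0.0543 to 0.462 over the 10).

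Acyl-CoA binding proteins, which hold acyl-CoA in the cytosol and on membranes, had 0 of 5 called by limma (median 0.0075), and 1, Dbi, had an unadjusted p under 0.05. The smallest p-values were those of Dbi, the main cytosolic binding protein (0.18, adjusted p = 0.119), and Acbd3 (0.22, adjusted p = 0.215).

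Among 11 fatty acid carriers, 2 were higher and 1 lower (median 0.092). Abcd3, a peroxisomal membrane transporter that takes in long-chain acyl-CoA and bile acid precursors, was at 2255, 2245, 2621 and 1988 in knockouts 1 to 4, against 1133, 1137, 1125 and 1091 in wild-types 1 to 4. The groups were far apart (log2 fold change 1.00 ± 0.09 SE, adjusted p = 2.26e-05). Its relative Abcd4, a lysosomal transporter of cobalamin, was lower (-0.77, adjusted p = 0.00172). The call of Fabp4 as higher (0.33, adjusted p = 0.0431) ended under 13 alternatives, with every single array left out except knockout 4 among them. Cd36, the fatty acid receptor of the apical membrane, named after its values were seen, had a log2 fold change of -0.56 and did not pass (adjusted p = 0.102). Fabp6, a bile acid binding protein of the ileum also named after its values were seen, was at 321, 4286, 4505 and 131 in knockouts 1 to 4, against 222, 460, 13 and 101 in wild-types 1 to 4. Its groups overlapped and it did not pass (adjusted p = 0.129).

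Of 28 enzymes that consume acyl-CoA, 4 were higher and 3 lower (median -0.047). Acox2, the peroxisomal oxidase of branched-chain and bile acid precursor CoA esters, was at 163, 160, 208 and 95 in knockouts 1 to 4, against 43, 13, 29 and 3 in wild-types 1 to 4 (log2 fold change 2.27, adjusted p = 0.000687). The groups did not overlap, and the wild-type signals are dim. Scd1, which desaturates stearoyl-CoA, was also higher (3.06, adjusted p = 0.000106). Dgat1 (0.64, adjusted p = 0.00876) and Gpat3 (0.66, adjusted p = 0.0209), named after their values were seen, were higher too. The groups overlapped for Gpat3, and neither gene was among the 3 list genes still higher after adjustment for the 3' to 5' ratio. Agpat3, an acyltransferase of phospholipid synthesis (-1.14, adjusted p = 0.000918), and the elongases Elovl1 (-0.73, adjusted p = 0.000314) and Elovl6 (-0.58, adjusted p = 0.00354) were lower. The call of Elovl6 ended on adjustment for the 3' to 5' ratio (adjusted p = 0.156).

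Among 11 regulators of fatty acid genes, 4 were higher and 2 lower (median 0.25). Ppara, the fatty acid receptor that is known in liver to control several synthetase genes, was at 761, 762, 752 and 395 in knockouts 1 to 4, against 259, 287, 212 and 278 in wild-types 1 to 4 (log2 fold change 1.27, adjusted p = 0.00112). Knockout 4 was the lowest knockout for Ppara, as it was for Slc27a2. The same array was lowest of the knockouts for Acsl5, Slc27a4 and the enterocyte markers Vil1, Alpi, Lgals4, Krt20 and Cdhr5. It was not lowest for the markers Cdh1, Epcam, Cdx2, Fabp1 and Fabp2. A link of Ppara with Slc27a2 was not tested. Srebf1 (1.06, adjusted p = 0.00189) and Nr1h3 (0.79, adjusted p = 0.0094) were higher, and the bile acid receptor gene Nr1h4 (-1.09, adjusted p = 3.38e-05) and its target Nr0b2 (-3.09, adjusted p = 1.38e-05) were lower. After adjustment for the 3' to 5' ratio Ppara (adjusted p = 0.0984), Srebf1 (0.135) and Nr1h3 (0.32) were not called, and Nr1h3 was also not called on adjustment for Xist or in the 6 arrays lacking it.

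**Figure D4:**
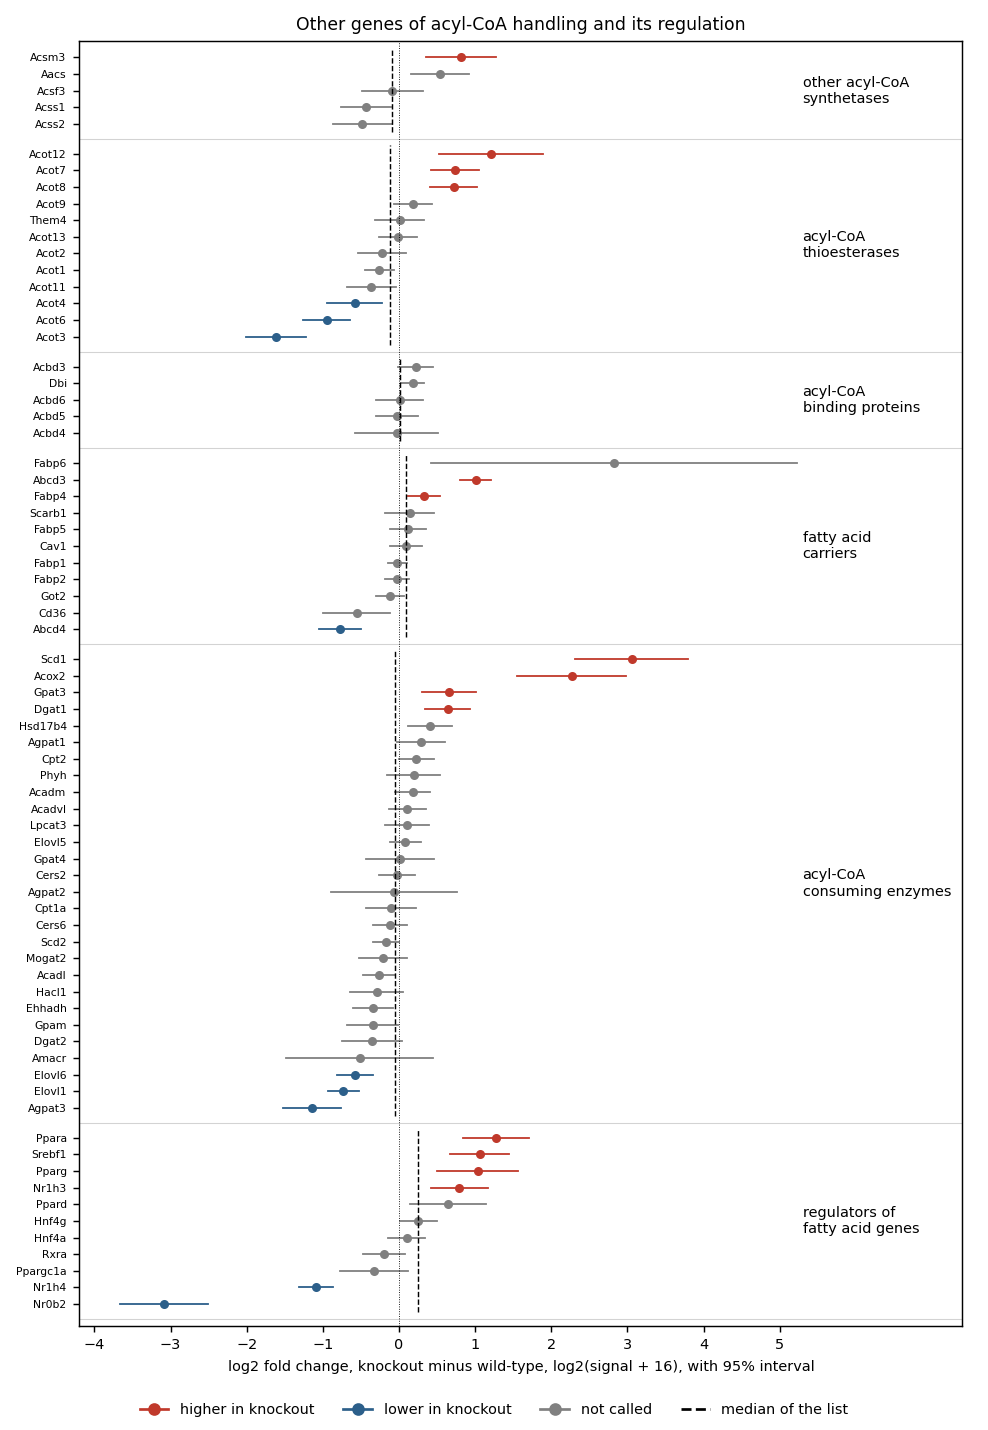
Log2 fold changes (horizontal axis, knockout minus wild-type on the log2(signal + 16) scale) of 72 genes in 6 lists of acyl-CoA handling and its regulation, with lines for 95% intervals and a dashed line for the median of each list. Red points are called as higher in the knockouts (14 genes), blue points as lower (9 genes) and grey points as neither; Scd1 and Acox2 lie farthest right among the called genes and Nr0b2 farthest left.

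The calls of the family itself did not depend on these settings. Slc27a2 and both called Acsl3 probe sets were called in the same direction under each of 20 alternatives, with log2 fold changes of 3.55 to 4.59 for Slc27a2, -0.96 to -0.72 for Acsl3 by 1452771_s_at and -0.89 to -0.72 by 1428386_at. No uncalled member gained a call under any of them.

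**Figure D5:**
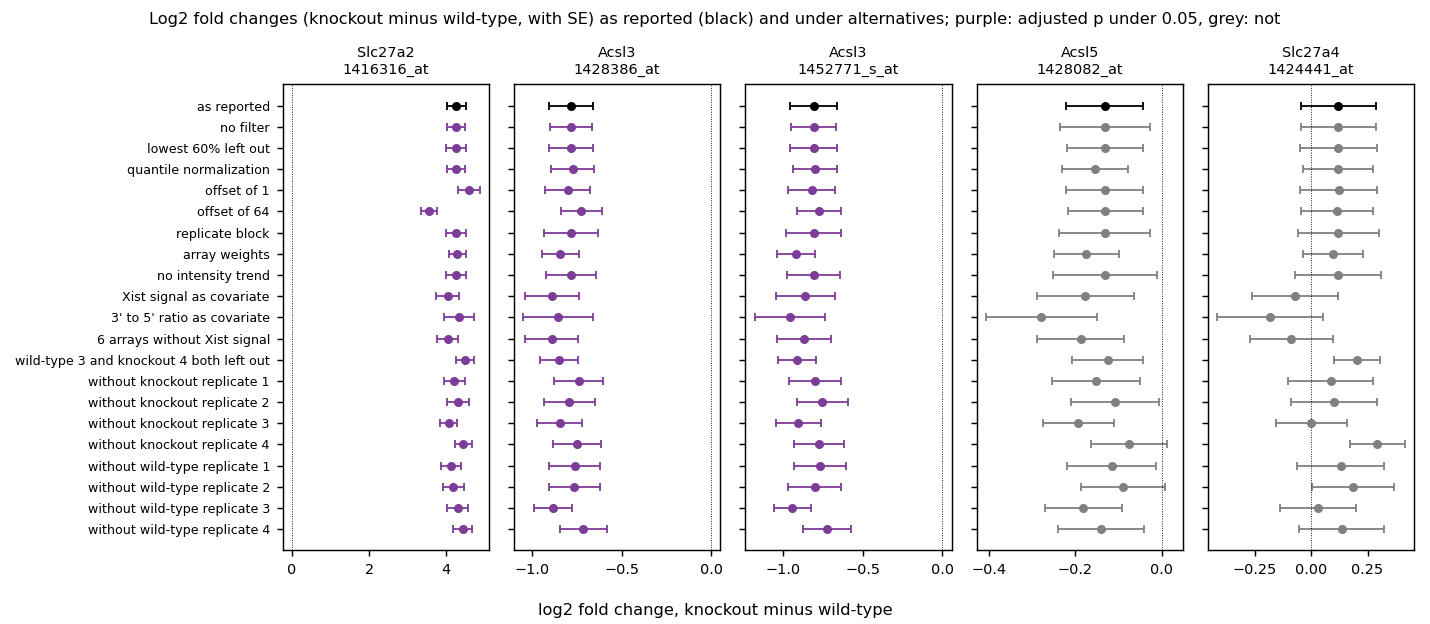
Log2 fold change with SE (horizontal axes, knockout minus wild-type, each panel with its own range) of 5 member probe sets as reported (top row, black) and under 20 alternatives (rows below). Purple marks an adjusted p under 0.05 and grey a larger one; Slc27a2 and both Acsl3 probe sets are purple in every row, and Acsl5 and Slc27a4 are grey in every row.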

How the data were processed

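RNA of 8 small intestines was measured on 1 array each. The authors deposited signal intensities on a linear scale, 1 per probe set and sample; each array had a trimmed mean of about 150.05, so a common scaling is already in the deposited values. The signal algorithm is not given in the sources used here. Per the labels' protocols, cRNA was made from an oligo-dT primer, which favours 3' ends.

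The 64 control probe sets were left out. Of all 45101 probe sets, 34958 had 1 gene symbol, 932 several and 9211 none in the platform annotation. Signals were taken as log2(signal + 16) without further normalization, since array medians differed by 0.158 at most. Probe sets in the lowest 40% by mean signal were dropped, leaving 27022. These were fitted together with limma 3.58.1 in R 4.3.3 (lmFit, eBayes with intensity trend), genotype as the only term, two-sided, with Benjamini-Hochberg adjustment over all of them. Fold changes are knockout over wild-type. The fit was tested on simulated data. The number of arrays limits the precision.

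The members and lists were chosen with earlier results of these data known. Named were all members, Plagl2, and from each list up to 5 called genes with the smallest p, or 2 genes where 0 were called. Acot4, Fabp6, Cd36, Acss1, Acss2, Dgat1 and Gpat3 were named after their values were seen, and Xist and marker genes beside the results they touch. Samples with the same replicate number did not deviate together (correlations -0.274 to -0.0111), so no pairing by number was seen. So few values cannot exclude one. Alternatives were other filters, offsets and normalization, array weights, no trend, the replicate number as a block, Xist or the 3' to 5' ratio as covariate, and arrays left out.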

Additional observations from a re-analysis of the deposited data

Results flagged for a closer look

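Of 80 groups of 4 arrays examined for a single array far from the other 3, 3 were marked, where chance gives about 1 in 20. Slc27a3 (1427180_at) was at 16 in knockout 2, against 2 to 4 in the other knockouts; all these signals are too dim for the test. Agpat3 (1450504_a_at) was at 491 in wild-type 3, against 738 to 765 in the other wild-types, and still above the knockouts (229 to 385). Ppara (1439675_at) was at 395 in knockout 4, against 752 to 762 in the other knockouts, and still above the wild-types (212 to 287).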

How the results depend on the processing

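The counts of member probe sets were 1 higher and 2 lower under each of the 20 alternatives. Among uncalled members the sign turned in 16 cases, always without a call. With the Xist signal as a covariate the log2 fold changes were 0.15 for Acsl4 (1433531_at), 0.054 for Slc27a1 (1435658_at), -0.070 for Slc27a4 and 0.47 for Slc27a5. In the 6 arrays without Xist signal these were 0.16, 0.044, -0.087 and 0.47 in the same order. After adjustment for the 3' to 5' ratio they were 0.0052 for Acsl4 (1433531_at), -0.054 for Slc27a1 (1422811_at) and -0.18 for Slc27a4. With 1 array left out at a time, Acsl4 (1433531_at) ranged from -0.29 to 0.031 and Slc27a5 from -0.28 to 0.16. The cause was not tested.

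List genes called as higher, 14 as reported, numbered 9 with the replicate block, 6 with the Xist covariate, 3 with the 3' to 5' covariate, 6 in the arrays without Xist signal, and 9 to 17 with 1 array left out (9 without knockout 2). Those called as lower, 9 as reported, numbered 16 with array weights, 16 without wild-type 3 and knockout 4, and 8 to 14 with 1 array left out (14 without wild-type 3). The replicate block changed no call of a member, but moved all calls from 1427 higher and 1811 lower to 751 and 1164; no knockout array correlated best with the wild-type of its own number. Higher calls over all probe sets fell to 778 (Xist covariate), 471 (3' to 5' covariate) and 807 (arrays without Xist signal). Lower calls over all probe sets rose to 2584 (array weights), 2268 (without wild-type 3 and knockout 4) and 2161 (without wild-type 3). Of 21 list genes named by the rule, Dbi and Acbd3 had no call to lose. Among the others 9 lost their call under at least 1 alternative, and 0 of the 21 changed sign. Among tested members the dim Slc27a5 had the widest interval.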
